A study of Mus musculus with 2 samples.

Results

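The IFIT genes encode interferon-induced proteins with tetratricopeptide repeats, and Ifit1, Ifit3 and Ifit3b were the members of this family found by gene name in the authors' deposited table of 179 genes. They were chosen because they are in that table, where both libraries' levels decide membership, so their difference between the libraries is described here and not tested. The libraries came from muscle-resident fibro/adipogenic progenitors (FAPs) of C57BL/6 mice, mesenchymal stromal cells that can form fibroblasts and adipocytes. Freshly sorted FAPs in DMEM with 20% fetal bovine serum and 1% penicillin-streptomycin received recombinant mouse Musclin at 1 µM, or vehicle, for 72 hours, with a daily change of medium. There was 1 library per group, Musclin and vehicle, and the labels do not say how many mice were used. The question of the comparison is which transcripts differ after exposure to Musclin, a peptide hormone secreted by muscle. Without replicates, no spread could be measured, every difference below is between 1 library and 1 library, and the sequencing depth is unknown. In bulk RNA, more cells that express a gene and more RNA per cell cannot be told apart.

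In the interferon pathway, secreted interferons bind receptors on the cell surface, Janus kinases signal to transcription factors, and a complex that contains Irf9 binds interferon-stimulated response elements in the promoters of antiviral genes. IFIT genes are among the most strongly induced targets of that complex. Human IFIT1 binds viral RNA whose cap lacks ribose methylation and blocks its translation, and human IFIT3 binds IFIT1 and stabilises it. The IFIT genes are also switched on directly by Irf3 when a cell senses foreign nucleic acid, without secreted interferon.

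All 6 mouse genes of the family lie in a cluster of 99316 bases on chromosome 19 (GENCODE M21, build GRCm38). In order along the chromosome they are Ifit2, Ifit3, Ifit1bl1, Ifit3b, Ifit1bl2 and Ifit1. Ifit3 (ENSMUSG00000074896) spans chr19:34583531-34588731, Ifit3b (ENSMUSG00000062488) spans chr19:34607970-34613401, and Ifit1 (ENSMUSG00000034459) spans chr19:34640871-34650009, all on the plus strand. Each of these has 2 exons, the first coding exon holds 5 coding bases, and the second holds 99.6% of the coding sequence. None of the 3 overlaps another annotated gene, on either strand, so they have no annotated antisense partner. Ifit3, Ifit3b and Ifit1 were in the deposited table, all higher in the Musclin library, while Ifit2 on the plus strand and Ifit1bl1 and Ifit1bl2 on the minus strand were not. Of all 23180 genes tested, 0.772% were in the table, and 0.500% were in it as higher. As the table is what chose the members, nothing is read from the 3 of 6. A gene outside the table is not shown to be unchanged, since only genes past the authors' limits of fold and adjusted p are in it.

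**Figure D1:**
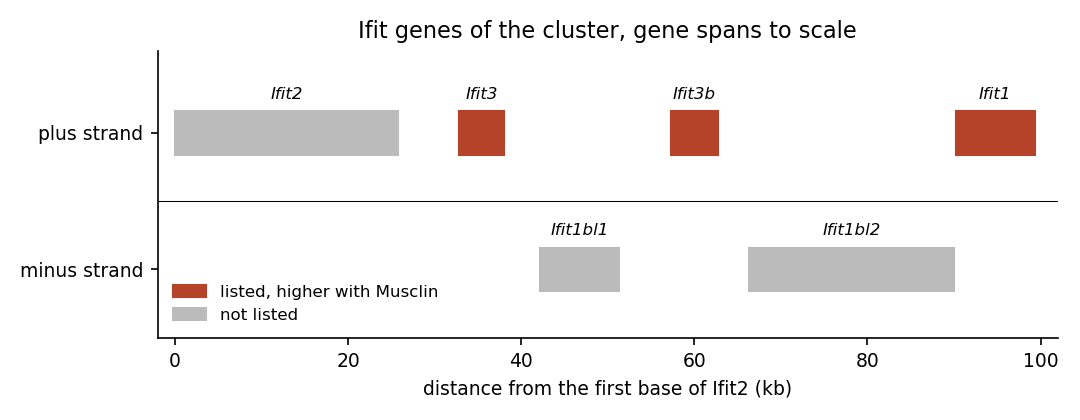
Gene spans of the Ifit cluster drawn to scale, with the distance from the first base of Ifit2 in kb on the x axis and the strands on separate rows. Red genes were in the authors' deposited table and higher in the Musclin library, and grey genes were not in the table; all 3 red genes lie on the plus strand.

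The promoters of the members are shown because IFIT genes are targets of the interferon pathway described above. The sequences printed are the 250 bases before the annotated start (RefSeq, GRCm38.p6), on the plus strand. Capitals mark matches to the core of the interferon-stimulated response element, spelled GAAA, then NN (any 2 bases), then GAAA, which was searched on both strands. In these 3 windows the matches lie on the strand opposite to the gene and therefore read TTTC, NN, TTTC.

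Ifit1, chr19:34640639-34640888: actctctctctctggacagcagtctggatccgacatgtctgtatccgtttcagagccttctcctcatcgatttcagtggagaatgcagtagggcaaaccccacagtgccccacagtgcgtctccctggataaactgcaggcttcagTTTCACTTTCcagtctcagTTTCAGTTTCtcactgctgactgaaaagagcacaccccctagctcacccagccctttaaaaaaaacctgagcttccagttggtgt
Ifit3, chr19:34583279-34583528: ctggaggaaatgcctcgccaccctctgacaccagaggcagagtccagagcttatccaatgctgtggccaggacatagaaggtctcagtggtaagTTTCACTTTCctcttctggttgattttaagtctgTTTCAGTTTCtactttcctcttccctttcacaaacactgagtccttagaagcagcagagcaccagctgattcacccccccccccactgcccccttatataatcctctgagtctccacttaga
Ifit3b, chr19:34607707-34607956: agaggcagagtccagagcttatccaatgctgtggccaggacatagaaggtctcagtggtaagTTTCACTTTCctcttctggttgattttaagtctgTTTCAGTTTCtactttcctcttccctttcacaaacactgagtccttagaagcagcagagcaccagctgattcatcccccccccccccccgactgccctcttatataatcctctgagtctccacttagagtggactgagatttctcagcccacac

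Every member held 2 matches. In Ifit3 they began 156 and 122 bases before the start, and in Ifit3b 188 and 154 bases before it. The annotated start of Ifit3b lies further along the shared sequence, so its window and its distances are shifted, whereas the spacing of 34 bases between the beginnings of the matches was the same in both genes. In Ifit1 the matches began 104 and 85 bases before the start, 19 bases apart. The start used for the Ifit1 window lies 18 bases inside the GENCODE gene span, and those used for Ifit3 and Ifit3b lie 2 and 13 bases before the GENCODE starts.

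The matches with 10 bases on either side, turned so that each reads GAAA, NN, GAAA in capitals, allow the copies to be compared.

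Ifit3 and Ifit3b, match farther from the start: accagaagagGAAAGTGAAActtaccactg
Ifit3 and Ifit3b, match nearer to the start: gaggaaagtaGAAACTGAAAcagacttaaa
Ifit1, match farther from the start: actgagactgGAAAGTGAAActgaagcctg
Ifit1, match nearer to the start: tcagcagtgaGAAACTGAAActgagactgg
Ifit1bl1, first annotated start: ccaacctacaGAAAATGAAAcctacagagt

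Ifit3 and Ifit3b differed by 0 bases over each of these stretches. The capitals were the same in Ifit1 and in Ifit3 for 2 of 2 matches, farther with farther and nearer with nearer, although the bases around them were not. Both matches of Ifit1 lie in the 127 bases between Ifit1 and Ifit1bl2, which are transcribed in opposite directions, and the same 2 matches fall in the promoter window of Ifit1bl2. Ifit1 was in the deposited table and Ifit1bl2 was not. Neither of the windows of Ifit2 held a match, which says only that these letters are absent from those windows.

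Matches were counted over the full windows of the RefSeq table, which also take in the 50 bases from the start onward. Among all 32851 promoter windows, 1131 (3.44%) held the core, and 74 held it at 2 or more places. Counted by gene, 3.99% of 27025 genes had it in at least 1 window, and 5 of the 6 genes of the Ifit family did. Of the 12 other interferon pathway genes in the deposited table, 8 had a window and 5 of these held a match, which were Cxcl10, Oas3, Ddx60, Tgtp2 and Rsad2. Windows of Cxcl9, Ifi47 and Cmpk2 held none. Mx1, Mx2, Gbp9 and Ccl5 had no entry. Of the pathway genes outside the deposited table, 45 of 110 with a window (40.9%) held a match as well. A match is a stretch of letters, and binding by any factor was not measured here.

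**Figure D2:**
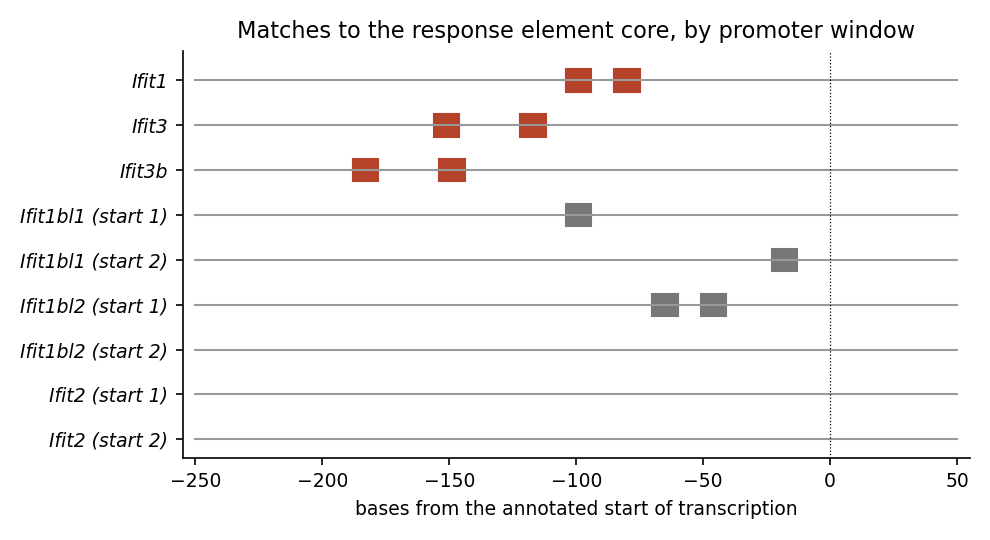
Positions of matches to the response element core in the promoter windows of the 6 Ifit genes, in bases from the annotated start on the x axis, with a row for each annotated start. Red boxes are matches in Ifit1, Ifit3 and Ifit3b, which hold 2 each, and grey boxes are matches in family genes that were not in the deposited table.

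Ifit3, the counterpart of the human gene for the partner of IFIT1, had a level of 191.85 in the Musclin library, against 90.96 in the vehicle library. Its log2 ratio of the levels, Musclin over vehicle, was 1.08. Ifit1, the gene of the cap-binding member, had a level of 102.29 in the Musclin library, against 51.38 in the vehicle library, a log2 ratio of 0.99. Ifit3b, the close copy of Ifit3, had a level of 48.61 in the Musclin library, against 24.12 in the vehicle library, a log2 ratio of 1.01. The Musclin library was thus the higher one for every member, and the order of levels was Ifit3, Ifit1, Ifit3b in both libraries. Summed over the members, the level was 342.75 in the Musclin library and 166.46 in the vehicle library, a ratio of 2.06. Whether neighbours in this order differ beyond a spread between cultures cannot be said with 1 library per group.

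**Figure D3:**
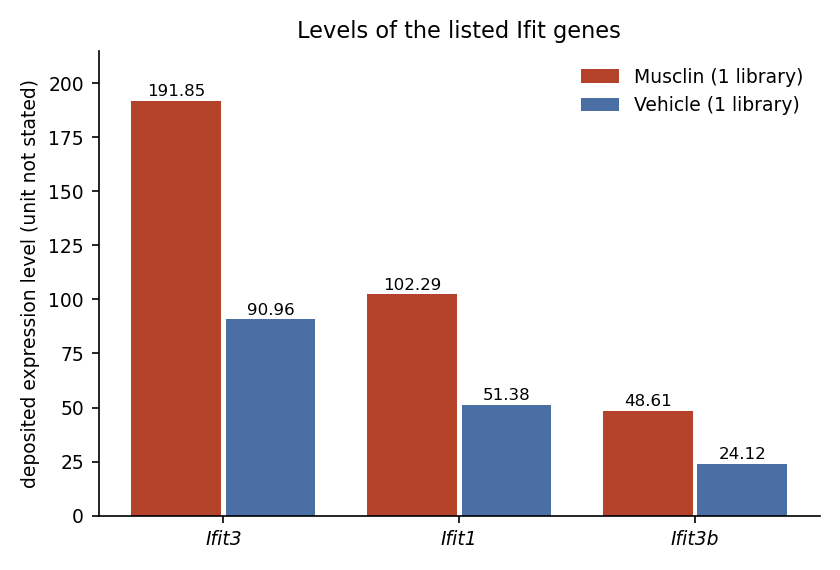
Deposited expression levels of Ifit3, Ifit1 and Ifit3b on a linear axis from 0, with 1 bar per library and no error bars because each group has 1 library. The Musclin bars stand at 191.85, 102.29 and 48.61 and the vehicle bars at 90.96, 51.38 and 24.12, with level ratios, Musclin over vehicle, of 2.11, 1.99 and 2.02.

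The baseline differed among the members far more than the relative difference did. Only genes past the authors' limit of fold are members, which bounds the relative difference from below and sets no such bound on the baseline. The likeness of the relative differences is therefore not read as a trait of the family. Ifit3 and Ifit3b are also near-identical, so their values may not be independent. In the Musclin library Ifit3 had 1.88 times the level of Ifit1 and 3.95 times that of Ifit3b, and Ifit1 had 2.10 times the level of Ifit3b. In the vehicle library, the baseline, these ratios were 1.77, 3.77 and 2.13. The log2 ratio, Musclin over vehicle, was larger by 0.083 in Ifit3 than in Ifit1 and by 0.066 in Ifit3 than in Ifit3b, while that of Ifit1 minus that of Ifit3b was -0.018. Rounding of the deposited levels to 0.01 can move these differences by at most 0.00066, but no replicate shows how far cultures vary. In absolute terms the members stood apart, with a level higher by 100.89 for Ifit3, by 50.91 for Ifit1 and by 24.49 for Ifit3b in the Musclin library. Each member's share of the summed level was similar in the 2 libraries. Ifit3 made up 56.0% in the Musclin library and 54.6% in the vehicle library, and Ifit1 made up 29.8% in the Musclin library and 30.9% in the vehicle library. For Ifit3b the shares were 14.2% in the Musclin library and 14.5% in the vehicle library.

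The folds in the authors' deposited table were 2.124 for Ifit3, 2.006 for Ifit1 and 2.029 for Ifit3b. The smallest fold of all 116 higher genes of the table was that of Ifit1, and the next was that of Ifit3b, whereas Ifit3 was the 8th smallest. The family therefore sits at the inner edge of the folds in the table, and the ratio of the deposited levels of Ifit1 was lower still, at 1.99. By p the members stood near the top instead. In the authors' deposited table the p of Ifit3 was 2.16e-170, that of Ifit1 was 6.22e-130 and that of Ifit3b was 1.18e-47, with adjusted p of 8.33e-167, 1.6e-126 and 8.57e-45. Among the 23180 genes tested, these were ranks 6, 9 and 32. These p-values compare 2 libraries and take no account of how cultures vary.

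The unit of the levels is not stated, and the authors' p-values give 2 hints about it. Were the levels of Ifit3 read counts, an exact binomial test of equal shares, two-sided, would give p = 1.89e-09, far from the p of the authors' deposited table, so the levels are not plain reads. Among the 3 members, the size of p in the authors' table also followed level times length. The -log10 p of the authors' deposited table, divided by the summed level of both libraries, varied 1.40-fold among the 3 genes, and 1.09-fold when divided by the level and by the transcript length as well (1745 nt for Ifit3, 2656 nt for Ifit1 and 2000 nt for Ifit3b). Levels per transcript length would behave in this way, and on that footing the levels of the members are set side by side here. With 3 genes this is a description, and the relation was not worked out for other genes of the table. Tmtc2 had levels of 6888.11 in the Musclin library and 2708.52 in the vehicle library. Its p in the authors' deposited table was 5.55e-76, larger than that of Ifit3, whereas the p of Filip1l was smaller than that of Ifit3.

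Ifit3 and Ifit3b are near-identical, which bears on how their reads were divided. Over their coding sequences of 1209 bases each, 1198 bases were identical and 11 differed, an identity of 99.1%. Ifit1, with 1389 coding bases, was 53.9% identical to Ifit3 over the aligned coding sequence, gaps included, and 74.1% and 74.2% identical to Ifit1bl1 and Ifit1bl2. Of all stretches of 100 bases in the Ifit3 transcript, 31.7% occurred unchanged in a transcript of another gene, compared with 27.4% for Ifit3b and 3.29% for Ifit1. Within the coding sequence the share was 45.4% for Ifit3 and for Ifit3b and 6.51% for Ifit1. With stretches of 50 bases, 51.2% of the Ifit3 transcript was shared and 45.0% of that of Ifit3b, and with 150 bases 18.5% and 16.0%. The read length was not known.

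A sum over Ifit3 and Ifit3b does not depend on how reads were divided between them, apart from their different lengths. The summed level of the pair was 240.46 in the Musclin library and 115.08 in the vehicle library, a log2 ratio of 1.06. Ifit3b made up 20.2% of the pair in the Musclin library and 21.0% in the vehicle library. Ifit1, which shares few stretches with other genes, had a log2 ratio of 0.99, and is a member because it is in the table as higher. The part of read division in the levels of Ifit3 and Ifit3b was not tested.

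Of 154 genes of the interferon pathway, 15 were in the deposited table as higher and 0 as lower, compared with 0.500% and 0.272% of all genes tested. The list includes the members, and earlier results of these data were known when it was drawn up. It does not hold every gene tied to interferon, and genes of the table outside the list were not counted. By role, the 3 Ifit genes were joined by 5 of 20 interferon-induced GTPases, 3 of 46 antiviral effectors, 3 of 4 interferon-induced chemokines and 1 of 16 nucleic acid sensors and adaptors. None of the 21 interferon genes themselves was in the table, nor any of 6 receptor chains, 12 kinases and transcription factors of the JAK-STAT and IRF pathway, 6 feedback inhibitors and 17 genes of antigen presentation. Irf7, Isg15 and Usp18, targets of interferon in most cell types, were thus outside the authors' limits of fold and adjusted p or not among the genes analysed here.

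The members had the highest levels of these 15 genes. They held 80.3% of the summed level of the 15 in the Musclin library and 84.3% in the vehicle library. Next came Ifi47, a GTPase of the immunity-related family, with 22.6 in the Musclin library and 10.42 in the vehicle library. Mx2, a dynamin-like GTPase, had 14.48 in the Musclin library and 6.26 in the vehicle library. Gbp9, a guanylate-binding protein, had 6.73 in the Musclin library and 3.31 in the vehicle library. The log2 ratios of these 3 genes were 1.12, 1.21 and 1.02. The other GTPases of the list that were in the table, Tgtp2 and Mx1, had log2 ratios of 2.02 and 2.20. Reads of Tgtp2 can be shared with its near-identical neighbour Tgtp1. The authors' deposited table gives Tgtp2 and Mx1 log2 folds of 1.82 and 1.999, smaller than their level ratios.

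Log2 ratios of the levels were 1.85 for Cxcl9, 2.53 for Cxcl10 and 2.56 for Ccl5, chemokines that attract T cells. Their levels were 7.93, 6.29 and 4.53 in the Musclin library and 2.2, 1.09 and 0.77 in the vehicle library. The authors' deposited table gives them log2 folds of 1.32, 2.50 and 2.56, so the fold of Cxcl9 was smaller than its level ratio. The log2 ratio of the levels was 1.20 for Ddx60, a helicase linked to RNA sensing, and 1.20 for Cmpk2, a nucleotide kinase. Rsad2, the antiviral enzyme viperin, had 1.45, and Oas3, which makes the oligoadenylate that activates RNase L, had 1.62. Levels in the Musclin and the vehicle library were 4.56 and 1.98 for Ddx60 and 2.75 and 1.2 for Cmpk2. They were 2.46 and 0.9 for Rsad2 and only 0.43 and 0.14 for Oas3. The authors' deposited table gives Oas3 a log2 fold of 1.88, larger than its level ratio. Over the 12 genes other than the members the median log2 ratio of the levels was 1.53, from 1.02 to 2.56. It was 0.99 to 1.08 for the members, with a median of 1.81 over all 93 higher genes above 0 in both libraries. These medians rest on the levels, and none was taken of the authors' folds. The vehicle levels of these 12 genes were all lower than that of Ifit3b, and in a table chosen by fold and p the ratio and the level are not independent. The place of the members among the smallest ratios is a description of the table.

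**Figure D4:**
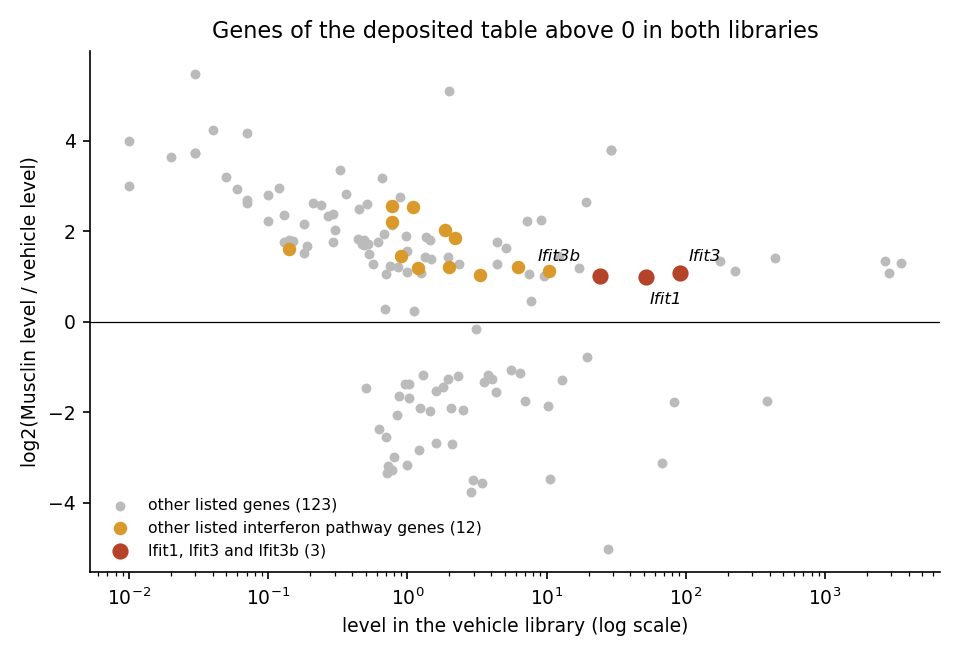
Log2 ratio of the levels, Musclin over vehicle, against the level in the vehicle library on a log axis, for the 138 genes of the deposited table above 0 in both libraries. Ifit1, Ifit3 and Ifit3b (red) lie to the right of the 12 other genes of the interferon pathway list (orange) and at log2 ratios of 0.99 to 1.08.

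Few genes of the table shared both the level and the ratio of the members. Only 15 of the 179 genes had a vehicle level as high as that of Ifit3b, the members included. Among the other 12, likeness was measured over the 2 libraries as the distance from the members' mean log2 ratio of 1.03. Filip1l was nearest at a distance of 0.059, with levels of 6134.47 in the Musclin library and 2889.82 in the vehicle library. The mitochondrial gene mt-Co3, a subunit of cytochrome c oxidase, followed at 0.092, with 488.56 in the Musclin library and 224.95 in the vehicle library. Gm26561, Camk1d and Tmtc2 were at distances of 0.28, 0.31 and 0.32.

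Markers of other cells were read from the same table, which cannot show genes outside it. None of 10 markers of FAPs was in it, so the label of the cells could not be checked by level. The same held for 8 myogenic, 6 endothelial, 8 macrophage and myeloid, 6 T cell and NK and 4 plasmacytoid dendritic cell markers. Of 7 erythroid markers, Hbb-bs, Hba-a1 and Hbb-bt were in the table, with a summed level of 51.24 in the Musclin library and 17.15 in the vehicle library. The part of red blood cells in the Ifit levels was not tested. The summed hemoglobin level was higher by 34.09 in the Musclin library, a ratio of 2.99, and that of the 3 Ifit genes by 176.29, a ratio of 2.06.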

How the data were processed

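RNA of 1 Musclin and 1 vehicle library was sequenced. The authors' deposited table holds an expression signal (level) per library, the fold of Musclin over PBS, its log2 value, a p-value and an adjusted p-value. PBS was taken as the vehicle, as the labels name no other library. The submitters' processing notes name the tools RSEM and edgeR and the build GRCm38.p5, but no roles or versions. Aligner, read length, strandedness and scaling are unknown here. The authors' p-values and folds were copied, ranked and set beside the levels.

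The number of genes tested (23180) follows from p over adjusted p, which gave whole ranks within 0.001 for 178 of 178 genes with p above 0. On simulated data the number was recovered in 10 of 10 simulations of 170 genes. There the adjusted p was set as p times the number of genes over the rank, so this checks only the arithmetic. Ratios were taken from the levels with no pseudocount, and no test was run between the libraries. Ifit genes, listed pathway genes and the 5 genes nearest in log2 ratio at the level of Ifit3b or above were named. Mb21d1 carries another symbol (Cgas) in GENCODE M21, which the table did not hold either. Members and lists were chosen with earlier results of these data known. Promoters came from RefSeq (GRCm38.p6) and transcripts from GENCODE M21. Candidates for shared stretches were found with BLAST+ 2.17.0 (alignments of at least 50 bases), and pairs were aligned with Biopython 1.88. Figures were drawn with matplotlib 3.10.9, and tables with pandas 2.3.3 under Python 3.11.15.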

Additional observations from a re-analysis of the deposited data

How the results depend on the processing

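No paired analysis was possible because each group has 1 library, and for the same reason no library could be left out. For Ifit3, Ifit1 and Ifit3b in this order, the log2 ratio was 1.08, 0.99 and 1.01 with a pseudocount of 0.1. It was 1.07, 0.98 and 0.98 with a pseudocount of 1, and 1.04, 0.93 and 0.88 with 5. The authors' deposited table gives log2 folds of 1.09, 1.00 and 1.02. Summing Ifit3 and Ifit3b gave 1.06. Centred on the median of the 138 listed genes above 0 in both libraries, a log2 ratio of 1.32, the values were -0.24, -0.33 and -0.31. Divided by the summed level of all listed genes, an alternative chosen after seeing the data, they were -0.14, -0.22 and -0.21. Both of these rest on genes picked for a fold past the authors' limit and say only that the members lie below them. An absolute log2 fold of 2 or more left 2 of the 15 interferon pathway genes and 0 of the 3 members, and 61 of the 116 higher genes. Higher genes numbered 72 at an adjusted p of 0.01 and 52 at 0.001, and at both of these limits the 3 members and 13 pathway genes passed. The motif with a C added at its end (GAAA, NN, GAAAC) was in 269 promoter windows, and all 3 members held it. Depth is unknown, so no counting limit was set.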

Other observations

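For the members, the authors' deposited fold exceeded the level ratio by nearly the same factor, 1.007 for Ifit3, 1.008 for Ifit1 and 1.007 for Ifit3b. Over the 18 listed genes that reached a level of 10 in both libraries, the members included, this factor had a median of 0.983 and ran from 0.701 to 1.008. Other listed genes were not summarised in this way, and some disagreed more. Entpd1 had a fold of 0.31, with levels of 0.85 in the Musclin library and 27.58 in the vehicle library. Bst1 had a fold of 3.304, with levels of 0.84 in the Musclin library and 0.69 in the vehicle library.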
